A study of Mus musculus with 6 samples.

Results

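The transcripts of heterotrimeric G proteins and of the proteins that limit their signalling were examined in primary mouse fibroblasts treated for 48 h with the chemokine CXCL3. The set was defined by gene symbol. It holds 12 G protein alpha genes of the Gi/o, Gq/11, Gs and G12/13 families, without Gnal, Gnat1, Gnat2 and Gnat3. It also holds all G beta and G gamma genes, the RGS genes, the G protein-coupled receptor kinases (GRKs) and the beta-arrestins. This gave 61 protein-coding genes of the 51912 genes in the deposited table. RNA sequencing covered 3 CXCL3 and 3 control libraries, with a time of 48 h given for both groups. The cells of both groups came from mice aged 6 weeks. The labels give neither strain, organ, dose of CXCL3 nor what the control cells received. The title places the series in work on CXCL3, myofibroblasts and the spread of pancreatic cancer.

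Chemokine receptors are 7-transmembrane receptors that signal mainly through Gi proteins. A G protein consists of an alpha subunit, which binds GDP at rest and GTP when active, and a beta-gamma pair that is released on activation. RGS proteins speed up GTP hydrolysis by alpha subunits and so end the signal. GRKs phosphorylate active receptors, and beta-arrestins bind the phosphorylated receptor, block G protein coupling and carry the receptor into the cell. CXCL3 is a ligand of CXCR2, a receptor that is regulated in this way in neutrophils.

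The receptor gene Cxcr2 was listed at 0.02 to 0.12 TPM (a length-corrected share of the transcripts in a library) over the 6 libraries. TPM keeps no read number, and depth is unknown. The labels do not say that replicates were separate cultures or animals, so p-values measure only the spread between these libraries. Of 11 fibroblast markers, 9 had at least 1 TPM in at least 3 libraries, while Lum (0.06 to 0.50 TPM) and Fap (0.16 to 0.54 TPM) were near 0. All 13 macrophage markers passed the same filter and summed to 15020 to 15120 TPM in CXCL3 libraries and 15320 to 18330 TPM in control libraries. Lyz2 alone made up 86.5% to 88.2% of these sums. Without Lyz2 the sums were still apart, at 1866 to 1914 TPM in CXCL3 libraries and 2064 to 2161 TPM in control libraries. Among the remaining markers, C1qa, C1qb and C1qc alone lay wholly lower with CXCL3. Their means were 167.1, 223.7 and 165.8 TPM with CXCL3 and 288.9, 300.4 and 227.2 TPM in controls. Mrc1 lay wholly higher (16.98 TPM with CXCL3, 11.5 TPM in controls), and the others overlapped between the groups. Of the 13 markers, 6 had a positive and 7 a negative log2 fold change, and C1qa was called lower with CXCL3 (-0.78, adjusted p = 0.0493), as was the fibroblast marker Col3a1 (-1.05, adjusted p = 0.0293). In whole cultures, fewer cells of a type and less RNA per cell cannot be told apart. The controls varied more than the CXCL3 libraries, and the SD of log2(TPM + 1) had a median over genes of 0.086 with CXCL3 and 0.20 in controls. Control 1 lay nearer to the mean of the CXCL3 libraries than to the mean of controls 2 and 3 for 73.7% of all genes tested and for 29 of 40 members (72.5%). Results are therefore also given without control 1.

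Transcripts of most members, but of only 10 of the 21 RGS genes, reached the level filter. No member passed the test between the groups. Of the 61 members, 40 had at least 1 TPM in at least 3 of the 6 libraries and were tested, and 21 lay below this filter. In the limma fit over all genes, 0 of 40 members passed an adjusted p of 0.05, where 0.160% of the 13139 genes tested passed. An unadjusted p under 0.05 was found for 7 members (17.5%), against 11.6% of all genes. Of the 7, 2 were higher with CXCL3 (5.93% of all genes) and 5 lower (5.65% of all genes). The smallest adjusted p of a member was 0.19, for Rgs2. Of the members tested, 25 had a positive and 15 a negative log2 fold change, and 62.3% of all genes had a positive one. The median log2 fold change was 0.04 over these members and 0.07 over all genes. The groups did not overlap for 11 members (27.5%) and for 17.2% of all genes. The 3 CXCL3 libraries lay wholly above the 3 controls for 4 members (7.92% of all genes) and wholly below them for 7 members (9.31% of all genes). The 4 were Gnaq, Gng7, Rgs18 and Arrb1, and the 7 were Rgs2, Rgs3, Rgs10, Gng5, Gng10, Gng11 and Gngt2.

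**Figure D1:**
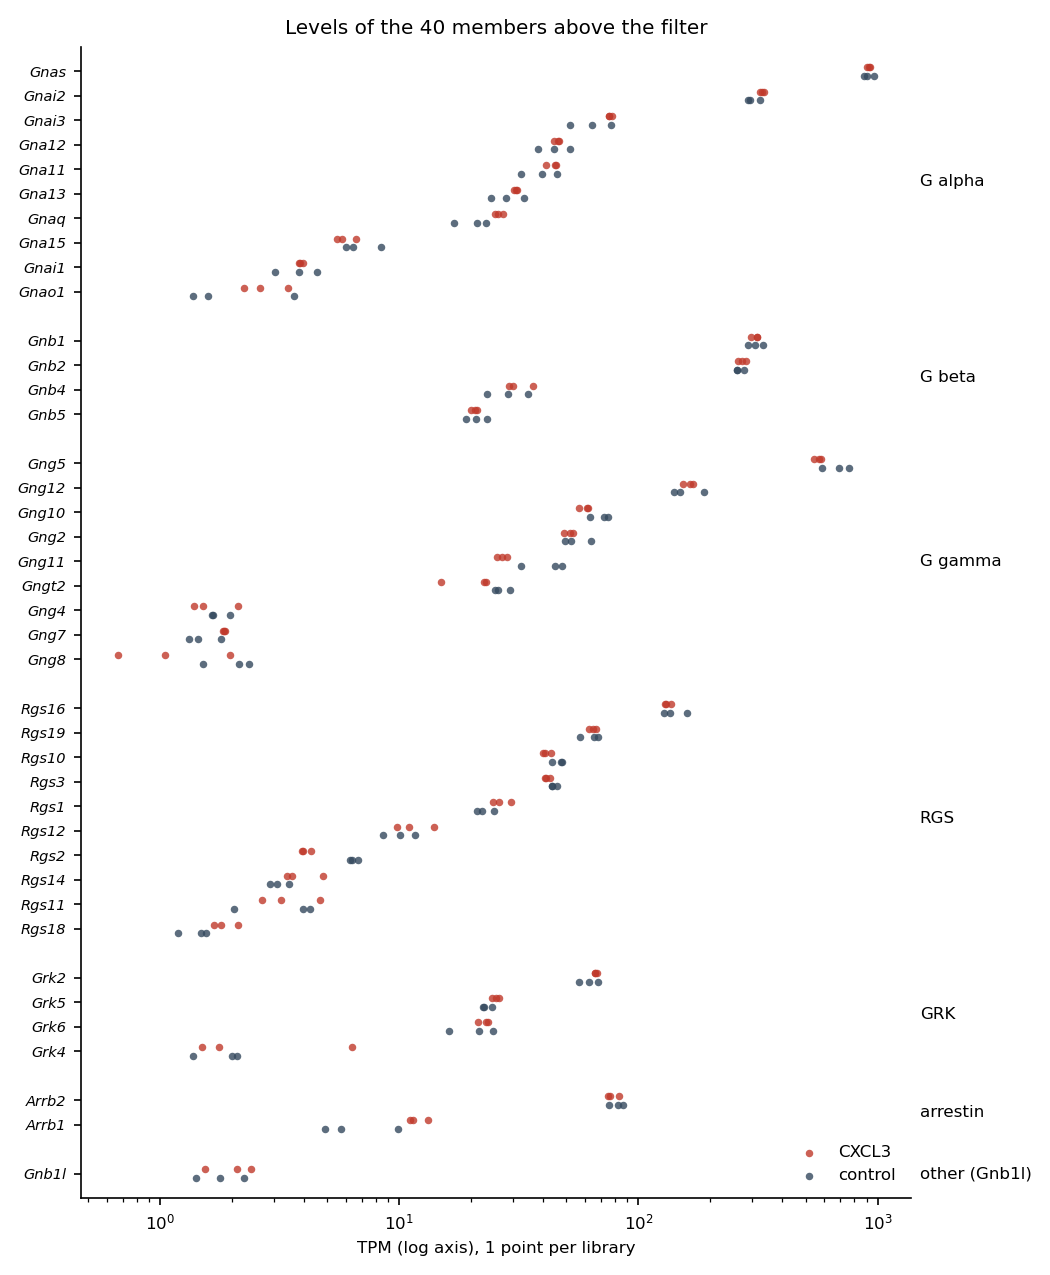
TPM (log axis) of the 40 members above the filter in each of the 3 CXCL3 and 3 control libraries, grouped by class and ordered by mean level. Within most rows the CXCL3 points lie close together while the control points spread, and Rgs2 and Gng11 stand out with both groups apart.

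Levels spanned from Gnas near 915 TPM down to genes listed at 0 in every library. The 7 highest were Gnas, Gng5, Gnai2, Gnb1, Gnb2, Gng12 and Rgs16, each with a mean over the 6 libraries of 137 TPM or more. A mean of at least 20 TPM was reached by 26 members and of at least 5 TPM by 30. Members below the filter reached at most 1.4 TPM in any library. Just under the filter were Rgs17 (0.65 to 1.40 TPM) and Rgs20 (0.54 to 1.28 TPM), and just above it Rgs18 (1.19 to 2.12 TPM) and Gng8 (0.67 to 2.35 TPM). Rgs13, Rgs21, Gng13 and Gngt1 were listed at 0 in all 6 libraries. Gng13 is known from taste and olfactory cells and Gngt1 from rod photoreceptors. Members best known from retina or nervous tissue had unlike levels. Gngt2 (14.97 to 29.0 TPM) and Gnao1 (1.37 to 3.62 TPM) passed the filter. Below it were the retinal kinase gene Grk1 (0 to 0.05 TPM), Gnb3 (0 to 0.11 TPM), Gng3 (0 to 0.18 TPM), Rgs6 (0 to 0.19 TPM) and Rgs7 (0 to 0.40 TPM). Rgs5, a marker of pericytes, was at 0 to 0.07 TPM.

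Promoter windows of members above the filter held more CpG than those of members below it, as over all genes. RefSeq promoter windows of 300 bases (250 before a start to 50 after it, GRCm38.p6) were at hand for 44 members. The 29 members that passed the filter had a median of 23 CpG dinucleotides per window (range 5 to 53). The 15 below it had a median of 7 (range 0 to 34), so the ranges overlapped. Over all protein-coding genes the medians were 21 for 9469 genes that passed and 4 for 7008 that did not. The windows of Gng5, the G gamma gene of the highest level, and of Rgs13, listed at 0, are shown with each CpG in capitals. They lie near the upper and lower ends of the member ranges. The Gng5 window (chr3:146499586-146499885, plus strand) holds 52 CpG and the Rgs13 window (chr1:144177323-144177622, minus strand) holds 0.
Gng5: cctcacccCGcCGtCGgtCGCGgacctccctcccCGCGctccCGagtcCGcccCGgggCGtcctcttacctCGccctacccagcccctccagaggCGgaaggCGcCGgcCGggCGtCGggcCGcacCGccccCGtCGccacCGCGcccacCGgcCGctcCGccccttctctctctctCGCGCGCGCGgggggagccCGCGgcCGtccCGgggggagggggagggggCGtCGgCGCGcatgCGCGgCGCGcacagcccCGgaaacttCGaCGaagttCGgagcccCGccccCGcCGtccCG
Rgs13: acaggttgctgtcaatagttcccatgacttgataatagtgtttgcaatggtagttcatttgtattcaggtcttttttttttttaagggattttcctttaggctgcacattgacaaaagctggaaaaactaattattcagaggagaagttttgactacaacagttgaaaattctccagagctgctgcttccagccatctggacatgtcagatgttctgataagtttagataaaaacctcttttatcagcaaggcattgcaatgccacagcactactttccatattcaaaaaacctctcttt

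Among alpha subunits, Gnas and Gnai2 made up most of the transcripts, and 9 of the 10 genes tested had a positive fold change without passing. Of all genes, 62.3% were positive, and both figures depended on the setting. The alpha count was 6 of 10 with median-of-ratios scaling (50.7% of all genes). Once the trend with length and GC was taken out it was 5 of 10 (49.9% of all genes). With control 1 as the only control it was 3 of 10 (31.1% of all genes). Gnas encodes the alpha subunit of Gs, which stimulates adenylyl cyclase, from an imprinted locus with several promoters that the table gives as 1 value. It was at 899, 931 and 918 TPM in CXCL3 libraries 1, 2 and 3, and at 907, 874 and 963 TPM in controls 1, 2 and 3. The groups overlapped, with a log2 fold change of 0.00 ± 0.06 (SE) and a 95% interval of -0.14 to 0.15. Its share of the summed TPM of the 12 alpha genes was 61.9% ± 0.708 with CXCL3 and 64.2% ± 2.35 in controls (SD, n = 3 each).

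The Gi/o genes carry the coupling that chemokine receptors use. Gnai2, the most abundant of them and a main Gi alpha of leukocytes, was at 335, 330 and 322 TPM with CXCL3 and at 322, 289 and 293 TPM in controls. Control 1 lay within the CXCL3 range and controls 2 and 3 below it (log2 fold change 0.13 ± 0.07, adjusted p = 0.465). Gnai3, which also inhibits adenylyl cyclase, was at 75.3, 77.6 and 75.3 TPM with CXCL3 and at 77.01, 51.8 and 64.1 TPM in controls (0.26 ± 0.14, adjusted p = 0.467). The same division was seen, with control 1 at the CXCL3 level. Gnai1 was far lower, at 3.87 ± 0.0764 TPM with CXCL3 and 3.79 ± 0.74 TPM in controls (0.04 ± 0.16, adjusted p = 0.917). Gnao1, the main Go alpha of neurons, was at 3.43, 2.63 and 2.24 TPM with CXCL3 and at 3.62, 1.59 and 1.37 TPM in controls (0.29 ± 0.27, adjusted p = 0.607). Gnaz, whose product resists pertussis toxin, was at 0.13 to 0.53 TPM and not tested. Summed over the 5 Gi/o genes of the set, TPM was 412 ± 7.36 with CXCL3 and 372 ± 32.4 in controls.

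Of the Gq/11 genes, whose products activate phospholipase C beta, Gnaq had groups that did not overlap. It was at 25.9, 27.1 and 25.2 TPM in CXCL3 libraries 1, 2 and 3, and at 23.2, 21.1 and 17.0 TPM in controls 1, 2 and 3 (1.27-fold, log2 fold change 0.35 ± 0.12, adjusted p = 0.377). With the dependence on transcript length and GC content taken out of each library, its log2 fold change was 0.17. Gna11, its close relative, was at 43.7 ± 2.17 TPM with CXCL3 and 39.2 ± 6.77 TPM in controls (0.17 ± 0.13, adjusted p = 0.547). Gna15, known from blood cells, was at 5.94 ± 0.568 TPM with CXCL3 and 6.93 ± 1.30 TPM in controls (-0.18 ± 0.16, adjusted p = 0.578), the only alpha gene tested with a negative fold change. Gna14 was at 0.02 to 0.12 TPM. The G12/13 genes were at 45.6 ± 1.19 TPM with CXCL3 and 44.7 ± 6.81 TPM in controls for Gna12 (0.04 ± 0.12, adjusted p = 0.872). Gna13 was at 30.7 ± 0.409 TPM with CXCL3 and 28.5 ± 4.54 TPM in controls (0.12 ± 0.12, adjusted p = 0.645).

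**Figure D2:**
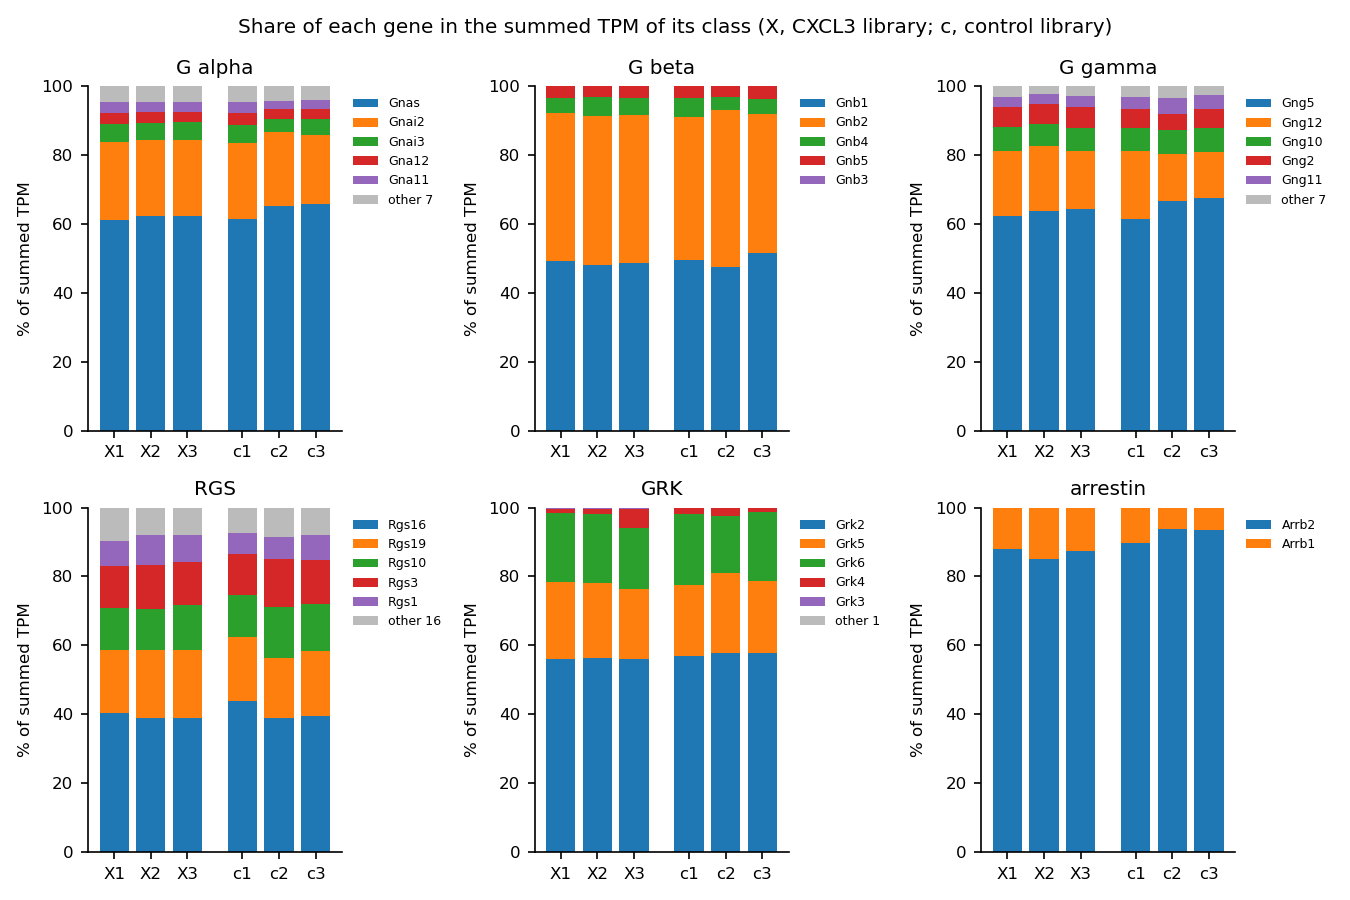
Share of each gene in the summed TPM of its class (vertical axis, percent) for CXCL3 libraries 1 to 3 (X1 to X3) and control libraries 1 to 3 (c1 to c3), with smaller genes pooled as other. Gnas, Gng5 and Arrb2 were the largest part of their class in every library, and Arrb2 averaged 86.8% with CXCL3 and 92.4% in controls.

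Beta subunits differed little between the groups. Gnb1 was at 307.5 ± 10.3 TPM with CXCL3 and 308.9 ± 21.3 TPM in controls (log2 fold change 0.00 ± 0.07, 95% interval -0.17 to 0.16, adjusted p = 0.977). Gnb2 was at 272 ± 10.1 TPM with CXCL3 and 264 ± 10.7 TPM in controls (0.04 ± 0.06, adjusted p = 0.767). Of the beta total, Gnb1 held 48.7% with CXCL3 and 49.5% in controls, and Gnb2 43.0% with CXCL3 and 42.5% in controls. Gnb4 was at 31.6 ± 3.97 TPM with CXCL3 and 28.8 ± 5.64 TPM in controls (0.14 ± 0.16, adjusted p = 0.661). Gnb5, the beta subunit that pairs with R7 RGS proteins, was at 20.7 ± 0.622 TPM with CXCL3 and 21.1 ± 2.18 TPM in controls. Its R7 partners Rgs6, Rgs7 and Rgs9 lay below the filter and Rgs11 was at 2.03 to 4.67 TPM. The 2 adaptor genes that anchor R7 complexes, Rgs7bp and Rgs9bp, reached at most 0.14 and 0.05 TPM. Gnb1l, which the symbol rule also takes in but which is not an established G beta subunit, was at 2.01 ± 0.44 TPM with CXCL3 and 1.82 ± 0.416 TPM in controls.

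Gamma subunits were the class with most negative fold changes, 7 of the 9 tested, where 62.3% of all genes had a positive one. Of the 7 members with an unadjusted p under 0.05, 4 were gamma genes, each lower with CXCL3 (5.65% of all genes). None passed, and Gng12 was negative as well with median-of-ratios scaling or with the length and GC trend removed. G gamma proteins are small prenylated proteins that hold the beta-gamma pair at the membrane. Gng11 (ENSMUSG00000032766, chromosome 6, 4003904 to 4008445, GRCm38) was at 25.7, 26.8 and 28.2 TPM in CXCL3 libraries 1, 2 and 3, and at 32.3, 47.8 and 44.9 TPM in controls 1, 2 and 3. All CXCL3 libraries lay below all controls, and control 1 was the nearest (log2 fold change -0.59 ± 0.15, adjusted p = 0.245). Gng5 was at 543, 572 and 580 TPM with CXCL3 and at 585, 689 and 758 TPM in controls. Control 1 was close to the CXCL3 libraries (-0.25 ± 0.10, adjusted p = 0.405). A processed pseudogene, Gng5-ps, was listed at 0 to 5.55 TPM, so the division of reads between the copies is uncertain.

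Gng10 was at 61.4, 56.3 and 61.0 TPM with CXCL3 and at 62.6, 71.6 and 74.9 TPM in controls (log2 fold change -0.22 ± 0.09, adjusted p = 0.424), again with control 1 nearest to the treated libraries. Gngt2, the cone photoreceptor gamma, was at 23.1, 14.97 and 22.6 TPM with CXCL3 and at 25.8, 29.0 and 25.1 TPM in controls (-0.40 ± 0.17, adjusted p = 0.426). CXCL3 library 2 lay well below the rest, and the other 2 CXCL3 libraries lay just under the controls. Gng8, at 1.97, 0.67 and 1.05 TPM with CXCL3 and 2.35, 2.14 and 1.52 TPM in controls, overlapped between the groups (-0.46 ± 0.24, adjusted p = 0.466). Gng12 was at 162 ± 7.99 TPM with CXCL3 and 160 ± 25.6 TPM in controls (0.03 ± 0.11, adjusted p = 0.889), and Gng2, Gng4 and Gng7 had adjusted p of 0.692, 0.869 and 0.551. Summed over the 12 gamma genes, TPM was 871, 896 and 905 in CXCL3 libraries and 953, 1033 and 1121 in controls. The sums of the groups did not overlap, and the sum follows Gng5, which held 63.4% ± 0.992 of it with CXCL3 and 65.2% ± 3.38 in controls.

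RGS genes ran from Rgs16, with a mean of 137 TPM, to genes listed at 0, and Rgs2 was the member of smallest p in the whole set. Rgs2 encodes a GTPase activator with a preference for Gq. It was at 3.96, 4.29 and 3.92 TPM in CXCL3 libraries 1, 2 and 3, and at 6.26, 6.76 and 6.38 TPM in controls 1, 2 and 3. The groups were tight and apart, and control 1 lay with the other controls, unlike in Gng11 or Gng5. The mean was 4.06 ± 0.203 TPM with CXCL3 and 6.47 ± 0.261 TPM in controls (SD, n = 3 each; 0.677-fold on the log2(TPM + 1) scale, log2 fold change -0.56 ± 0.12, unadjusted p = 0.00219, adjusted p = 0.19). With the length and GC trend removed it was -0.61 (adjusted p = 0.0824), and with control 1 as the only control it was -0.52 (adjusted p = 0.198). Rgs2 therefore did not pass over all genes, although its groups differed by more than the spread within either.

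Rgs2 (ENSMUSG00000026360) lies on chromosome 1 from 143999338 to 144004161 on the minus strand of GRCm38. Its promoter window (chr1:144004100-144004399, minus strand, GRCm38.p6) is shown because this gene had the smallest p. It was searched for the core of the cAMP response element, TGACG, on either strand (CGTCA on the other), printed in capitals.
Rgs2: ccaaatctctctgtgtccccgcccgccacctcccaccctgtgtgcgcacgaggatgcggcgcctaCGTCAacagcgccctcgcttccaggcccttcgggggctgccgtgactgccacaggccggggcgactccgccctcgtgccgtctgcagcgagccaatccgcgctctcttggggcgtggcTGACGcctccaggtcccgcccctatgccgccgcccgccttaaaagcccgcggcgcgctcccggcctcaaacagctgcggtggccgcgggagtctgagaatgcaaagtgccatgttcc
The letters occur at 2 places, with first bases at -185 and -67 from the start. This core is found in 16 of 59 windows of members (27.1%) and in 20.8% of all 32851 windows. The full palindromic element is found in 0 windows of members and in 1.79% of all windows. A match describes the letters and does not show binding.

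Rgs2 is the first of 5 R4 genes that lie side by side on chromosome 1 between 143999338 and 144775435, in the order Rgs2, Rgs13, Rgs1, Rgs21 and Rgs18, with 0 other protein-coding genes between them. Their levels differed widely. Rgs1, which restrains chemokine-driven migration of lymphocytes, was the highest, at 24.6, 29.3 and 26.3 TPM with CXCL3 and at 22.2, 21.1 and 25.0 TPM in controls. The groups overlapped narrowly (log2 fold change 0.22 ± 0.11, adjusted p = 0.457), and the log2 fold change was -0.0038 once the length and GC trend was removed. Rgs18, known from platelets and their precursors, was at 1.69, 2.12 and 1.80 TPM with CXCL3 and at 1.19, 1.56 and 1.49 TPM in controls (0.25 ± 0.15, adjusted p = 0.487). Rgs13 and Rgs21 were listed at 0 throughout. Before that removal, Rgs2 was the 1 gene with a negative fold change of the 3 tested in this cluster.

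Rgs16, an activator of GTP hydrolysis on Gi and Gq that inflammatory stimuli are known to induce, was at 137, 131 and 130 TPM with CXCL3 and at 160, 128 and 136 TPM in controls (log2 fold change -0.09 ± 0.09, adjusted p = 0.646). Control 1 was the highest library and the rest lay together. Its neighbour Rgs8, from the same stretch of chromosome 1 (153653025 to 153745468), was at 0.34 to 0.81 TPM. Rgs19, a Gi-directed RZ member, was at 64.4 ± 2.28 TPM with CXCL3 and 63.3 ± 5.68 TPM in controls (0.03 ± 0.09, adjusted p = 0.882). Rgs10, a small R12 member found in microglia and macrophages, was at 40.9, 40.1 and 43.2 TPM with CXCL3 and at 43.5, 48.1 and 47.4 TPM in controls (-0.16 ± 0.08, adjusted p = 0.462). Its groups did not overlap, but by a margin of less than 1 TPM. Rgs3 was at 41.6 ± 1.05 TPM with CXCL3 and 44.2 ± 1.23 TPM in controls (-0.09, adjusted p = 0.578), also without overlap. Rgs12 and Rgs14, R12 members that also bind Ras-family proteins, had log2 fold changes of 0.18 and 0.24 (adjusted p = 0.608 and 0.508). Rgs11 (0.05, adjusted p = 0.933) overlaps Arhgdig on the other strand, which averaged 10.2 TPM, and the counting is not stated to use strand. The macrophage markers described above moved in both directions, and their part in the values of Rgs10 and other members was not tested.

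**Figure D3:**
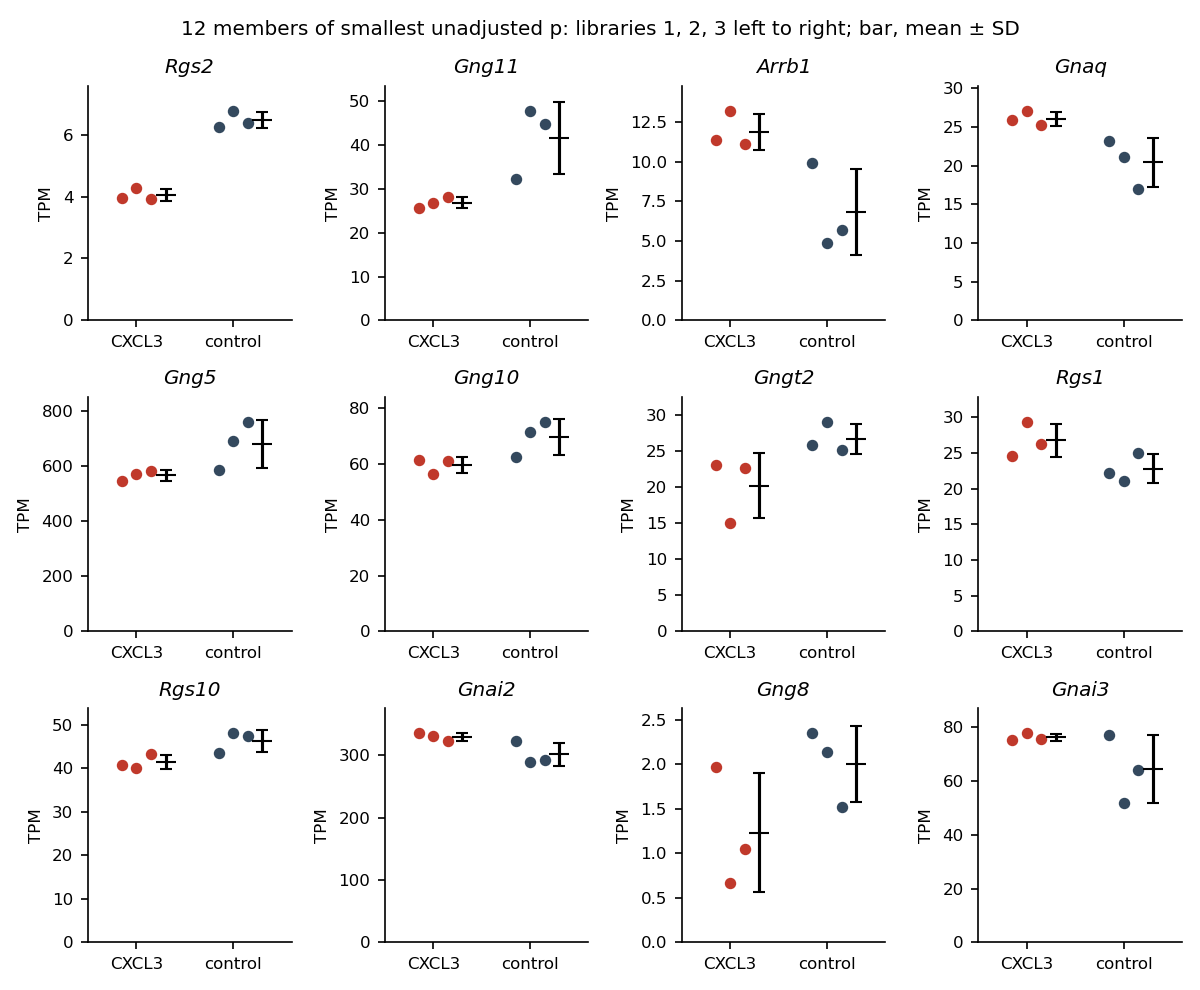
TPM of the 12 members of smallest unadjusted p, libraries 1, 2 and 3 from left to right within CXCL3 and control, with mean ± SD beside the points. In Rgs2 all 3 controls (6.26 to 6.76 TPM) sit above the CXCL3 libraries (3.92 to 4.29 TPM), while in Arrb1, Gng11, Gng5, Gnai2 and Gnai3 control 1 lies nearer to the CXCL3 libraries than the other controls do.

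Of the receptor kinases, Grk2 was the most abundant and Grk3, its closest relative, lay below the filter. Grk2 and Grk3 are drawn to the membrane by free beta-gamma pairs. Grk2 was at 66.0, 65.6 and 67.4 TPM with CXCL3 and at 68.0, 56.3 and 62.3 TPM in controls (log2 fold change 0.10 ± 0.09, adjusted p = 0.598). Grk3 was at 0.16 to 0.53 TPM. Grk6, the kinase of leukocyte chemokine receptors, was at 22.7 ± 1.09 TPM with CXCL3 and 20.8 ± 4.36 TPM in controls (0.14 ± 0.15, adjusted p = 0.663). Grk5 was at 25.4 ± 0.944 TPM with CXCL3 and 23.1 ± 1.16 TPM in controls (0.13 ± 0.09, adjusted p = 0.514). It overlaps Zfp950 on the other strand, which averaged 8.24 TPM. Grk4, known from testis, was at 1.5, 1.77 and 6.38 TPM with CXCL3 and at 2.00, 2.10 and 1.37 TPM in controls. The value of CXCL3 library 3 alone made its log2 fold change positive (0.40 ± 0.40, adjusted p = 0.62), and without that library it was -0.09. Shares of the GRK total were close, Grk2 holding 56.2% ± 0.121 with CXCL3 and 57.5% ± 0.547 in controls.

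Neither beta-arrestin gene passed, and the difference between their fold changes was not tested. Arrb1 had the largest fold change of the members tested and Arrb2, which was several times more abundant, had almost none. Arrb1 (ENSMUSG00000018909, chromosome 7, 99535466 to 99606771, GRCm38) was at 11.4, 13.2 and 11.1 TPM in CXCL3 libraries 1, 2 and 3, and at 9.89, 4.89 and 5.71 TPM in controls 1, 2 and 3. All CXCL3 libraries lay above all controls, with control 1 close below them (1.70-fold on the log2(TPM + 1) scale, log2 fold change 0.77 ± 0.23, 95% interval 0.23 to 1.30, adjusted p = 0.31). With the length and GC trend removed the log2 fold change was 0.54, and with control 1 as the only control 0.24. Arrb2 was at 83.2, 74.9 and 76.0 TPM with CXCL3 and at 86.0, 75.7 and 82.4 TPM in controls (-0.06 ± 0.08, 95% interval -0.25 to 0.13, adjusted p = 0.716). Arrb1 thus made up 13.3% ± 1.53 of beta-arrestin TPM with CXCL3 and 7.62% ± 2.34 in controls, without a test. The longest transcript of Arrb1 has 7135 bases and that of Arrb2 has 1848 bases.

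**Figure D4:**
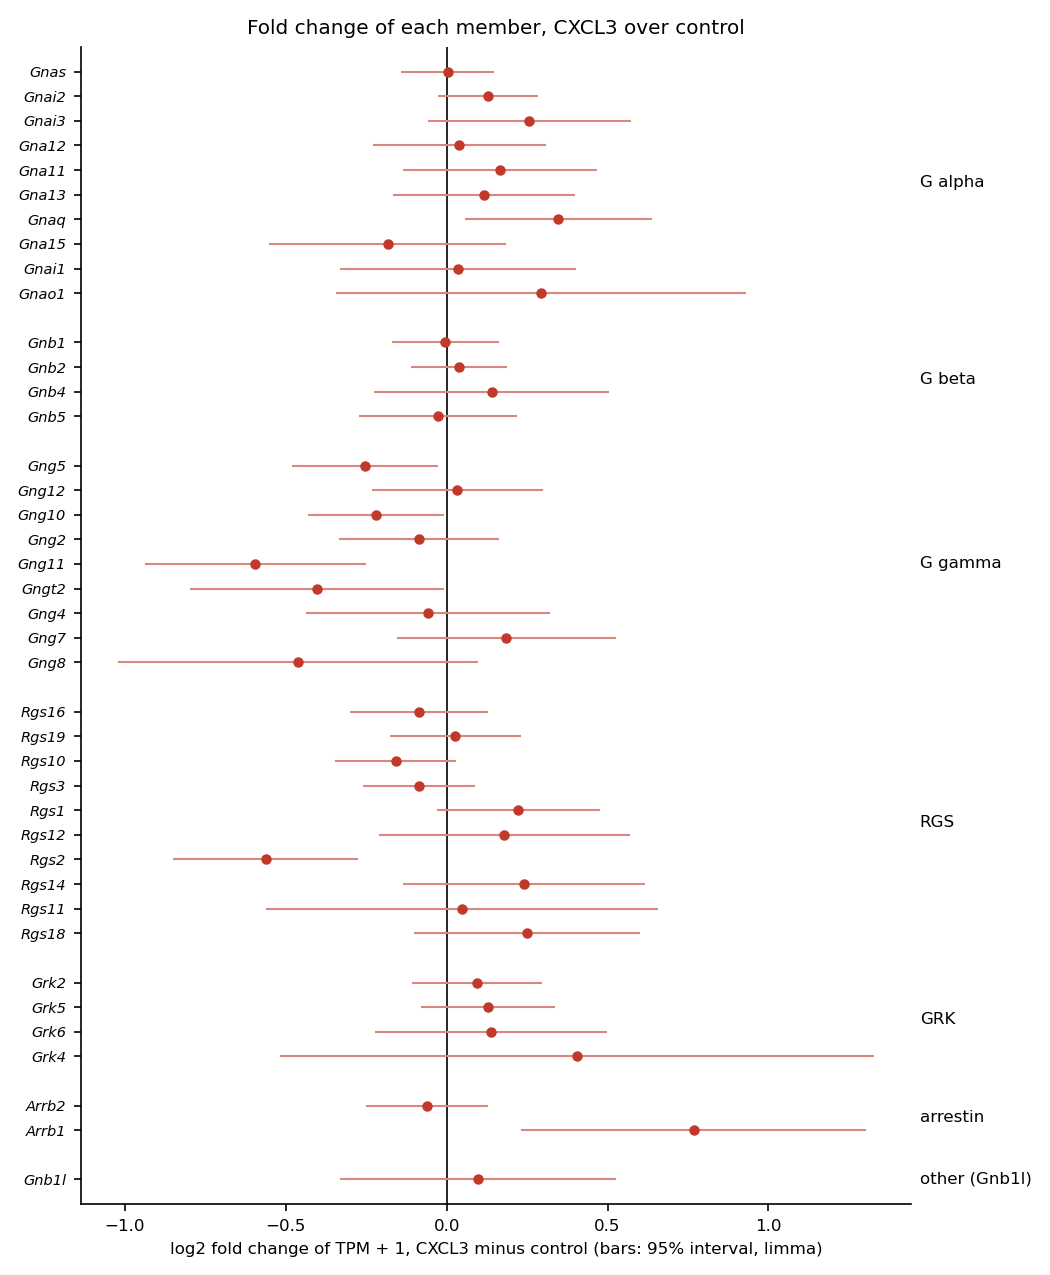
Log2 fold change of TPM + 1 (CXCL3 minus control) of each of the 40 members tested, with its 95% interval from limma, grouped by class. The intervals of Rgs2, Gng11, Gng5, Gng10, Gngt2, Gnaq and Arrb1 do not reach 0, and none of these genes passed after adjustment over all 13139 genes.

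Fold changes of the members followed transcript length. Across the 40 members tested, which are not independent replicates, log2 fold change had a Spearman correlation of 0.59 with the length of the longest annotated transcript, and across 13114 genes of 0.45. Each library was also set against the average of all 6. Over the members, this deviation correlated with length at 0.26, 0.58 and 0.43 in CXCL3 libraries 1, 2 and 3, and at 0.23, -0.62 and -0.51 in controls 1, 2 and 3. The shortest were Rgs10 (880 bases), Gng8 (910 bases) and Gng11 (919 bases), and the longest was Arrb1 (7135 bases). The median was 2419 bases for the 9 gamma genes and 3161 bases for all 40 members. With the length and GC trend over the genes tested removed, the Spearman correlation with length across the 40 members was still 0.22. The median log2 fold change of the gamma genes was then -0.18 in place of -0.22. That of the alpha genes was 0.02 in place of 0.12, and that of the kinases 0.03 in place of 0.13. Gng11 (-0.52), Gng5 (-0.28), Gngt2 (-0.35) and Rgs2 (-0.61) kept most of their size, while Gnaq (0.17) and Grk5 (-0.08) did not.

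**Figure D5:**
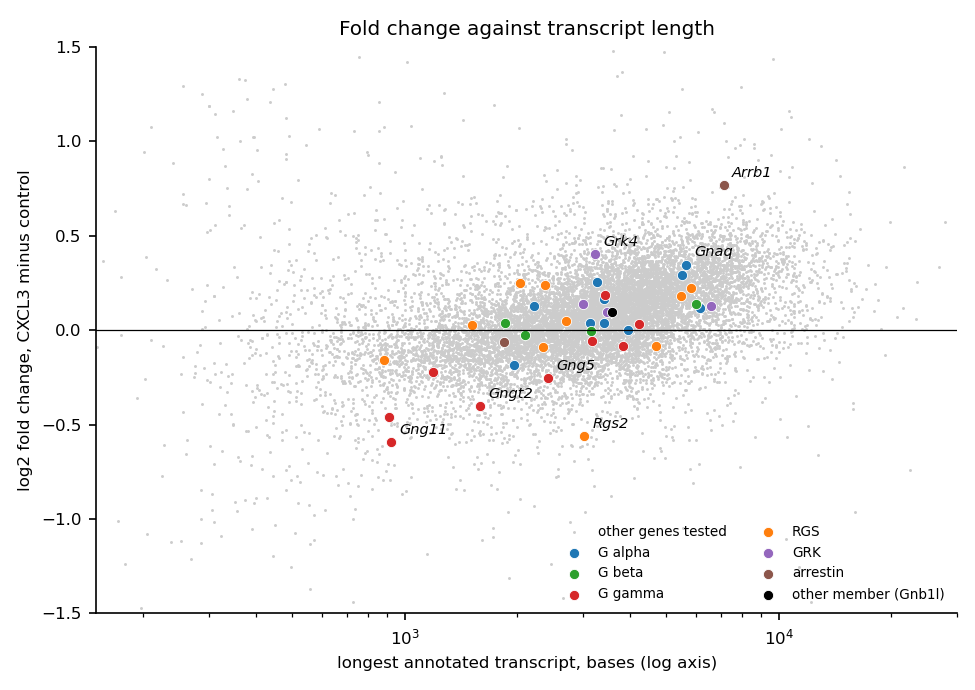
Log2 fold change (CXCL3 minus control) against the length of the longest annotated transcript (log axis) for the members by class, over the other genes tested in grey, 47 of all genes lying outside the plotted range. Gng8, Gng11 and Gng10 lie low at the short end, Arrb1 and Gnaq high at the long end, and Rgs2 lies below genes of its length.

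Control 1 decided the count of calls. It is singled out here because of where its values lay, near the CXCL3 libraries, so calls made without it are not independent evidence of a difference. Leaving out any other single library gave 0 calls among the members, and only 0 to 10 calls among all 13139 genes tested. Without control 1, limma called 10 of the 40 members (25%), 5 higher and 5 lower with CXCL3, where 32.4% of all genes were called, 25.2% higher and 7.17% lower. The higher ones were Arrb1 (log2 fold change 1.03, adjusted p = 0.00485), Gnaq (0.44, 0.0209), Gnai3 (0.39, 0.0226), Gnai2 (0.18, 0.0268) and Gnao1 (0.59, 0.0407). The lower ones were Gng11 (-0.76, 0.00408), Gng5 (-0.35, 0.00858), Rgs2 (-0.58, 0.0099), Gng10 (-0.29, 0.0169) and Rgs10 (-0.20, 0.047). With library weights, which set control 1 lowest and whose estimation stopped short of its convergence tolerance, 5 members were called (12.5%, against 11.0% of all genes). Arrb1 and Gnaq were higher (7.96% of all genes) and Gng11, Gng5 and Rgs2 lower (3.04% of all genes), and all 5 were also called without control 1. With control 1 as the only control, 0 members were called, against 0.639% of all genes. There the spread rests on the CXCL3 libraries, and the log2 fold change of Gng5 was -0.05, of Gnai2 0.03 and of Gnai3 -0.02.

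The genes that G proteins act on, or that fold and regulate them, gave 0 calls as well, where only 0.160% of all genes tested passed. Of 25 effector genes, 21 were tested, 19 of them with a positive log2 fold change and a median of 0.25, where 62.3% of all genes were positive. With the length and GC trend removed, 14 were positive (49.9% of all genes) and the median was 0.06. With control 1 as the only control, 3 were positive (31.1% of all genes). These transcripts are long, with a median of 5871 bases against 3213 bases over all genes tested. Kalrn was at 71.0 ± 5.31 TPM with CXCL3 and 157.1 ± 40 TPM in controls (log2 fold change -1.11 ± 0.17, adjusted p = 0.11), opposite in sign to most of the list and without overlap. Arhgef1, whose product is activated by G13, was at 72.7 ± 3.12 TPM with CXCL3 and 64.6 ± 4.12 TPM in controls (adjusted p = 0.448). Of 12 exchange factors, chaperones and GoLoco proteins, 11 were tested, 8 positive, or 6 with the trend removed. Pdcl, a folding partner of beta subunits, was at 33.2 ± 1.88 TPM with CXCL3 and 26.0 ± 3.94 TPM in controls (adjusted p = 0.37), and Nucb2, of the nucleobindin family that binds Gi alpha, at 38.9 ± 1.40 and 45.8 ± 3.93 TPM in the same order (adjusted p = 0.408). Of 14 genes of the cAMP kinase and its targets, 13 were tested and all 13 were positive, with a median of 0.20. With the trend removed, 10 were positive and the median was 0.13, and with control 1 as the only control 6 were positive. Nr4a1, an early target of cAMP signalling, was at 22.8 ± 1.71 TPM with CXCL3 and 18.4 ± 1.18 TPM in controls (0.30 ± 0.10, adjusted p = 0.371). Of 22 chemokine receptor genes, 4 were tested, 2 positive and 2 negative. Cxcr4, a Gi-coupled receptor, was at 23.5 ± 1.93 TPM with CXCL3 and 31.3 ± 3.28 TPM in controls (adjusted p = 0.29).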

How the data were processed

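RNA of primary mouse fibroblasts was sequenced in 3 CXCL3 and 3 control libraries, and groups and replicate numbers follow the sample labels. The authors deposited a TPM value per gene and library for 51912 genes. The submitters' processing notes name fastp, HISAT, RSEM and the build GRCm38.p5, without versions. The annotation release, any filter and the use of strand are not stated in the labels. Columns sum to 984281 to 986705 TPM. Symbols, gene types, positions, transcript lengths and GC content came from GENCODE M21 (GRCm38), which matched 51633 genes.

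Genes with at least 1 TPM in at least 3 of 6 libraries were tested by limma 3.58.1 (R 4.3.3) after conversion to log2(TPM + 1) (eBayes with trend, two-sided), CXCL3 minus control, with Benjamini-Hochberg adjustment over all 13139 genes and a threshold of 0.05. A fold change on this scale understates that of low genes. With 3 libraries a group, an exact permutation test reaches p = 0.1 at best and was not used. The fit was also run on simulated data with equal spread in both groups. The real controls varied more than the CXCL3 libraries, so that run does not vouch for the fit here. Alternatives covered pseudocount, filter, scaling, variance model, library weights, block and libraries left out. The symbol rule and the gene lists were chosen with earlier results of these data known. Members named in full are the 12 of smallest p, the alpha, GRK and arrestin genes tested, and the 3 highest beta, gamma and RGS genes. Others are given by values or ranges. Promoter windows came from RefSeq (GRCm38.p6), with none at hand for 17 members.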

Additional observations from a re-analysis of the deposited data

How the results depend on the processing

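Of 30 members given in full, 12 kept their sign under every alternative fit that gave them a value (20 in all, with 26 of the 30 members passing the filter of 5 TPM), among them Rgs2, Gng11, Gng5, Gng10, Gngt2, Gnaq, Arrb1, Arrb2, Gnai2 and Rgs10. The other 18 changed sign in at least 1 of them, and the cause was not tested. With median-of-ratios scaling, the sign changed for Gna12 -0.033, Gnai1 -0.021, Gnas -0.071, Gnb2 -0.035, Gng12 -0.041 and Rgs19 -0.046. With quantile normalization, the sign changed for Gna12 -0.0007, Gnai1 -0.073 and Gnb1 0.054. With the length and GC trend removed, the sign changed for Gna12 -0.060, Gna13 -0.078, Gnai1 -0.024, Gnas -0.13, Gnb4 -0.048, Gng12 -0.093, Grk2 -0.0025, Grk5 -0.078 and Rgs1 -0.0038. With library weights, the sign changed for Gnas -0.012. With mitochondrial genes removed, the sign changed for Gnb1 0.012. With control 1 alone, the sign changed for Gna11 -0.069, Gna12 -0.17, Gna13 -0.11, Gnai1 -0.18, Gnai3 -0.018, Gnao1 -0.31, Gnb1 0.0003, Gnb4 -0.13, Gng12 -0.22, Grk2 -0.035, Grk6 -0.12 and Rgs19 -0.071. With 1 library left out, the ranges that crossed 0 were Gna12 -0.070 to 0.15, Gnai1 -0.081 to 0.14, Gnas -0.029 to 0.041, Gnb1 -0.053 to 0.046, Gng12 -0.052 to 0.16, Grk4 -0.091 to 0.69, Grk6 -0.027 to 0.27, Rgs16 -0.16 to 0.0045 and Rgs19 -0.047 to 0.077.

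The count of members called was 0 in all but 2 alternatives, 5 with library weights (not converged) and 10 without control 1, so that it ran from 0 to 10 with 1 library left out. The count over all genes was 21, and it was 5 with median-of-ratios scaling, 0 when no filter was applied, 36 with the length and GC trend removed, 1 with eBayes without trend, 1446 with library weights and 84 with control 1 alone. It ran from 0 to 4254 with 1 library left out. The median log2 fold change of the members was 0.04, and it was -0.027 with median-of-ratios scaling, -0.031 with the trend removed and -0.043 with control 1 alone. It ran from -0.016 to 0.145 with 1 library left out, where 0.145 is without control 1 and the median of all genes was then 0.14.

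The difference in class share (percentage points, CXCL3 minus control) ran with 1 library left out from -3.61 to -1.39 for Gnas, 0.54 to 1.46 for Gnai2, -1.85 to 0.25 for Gnb1, -3.73 to -0.60 for Gng5, -2.15 to 0.24 for Rgs16, -1.66 to -1.14 for Grk2 and -6.97 to -4.77 for Arrb2. The libraries share replicate numbers, but the deviations of same-numbered libraries from their group means correlated at 0.12, -0.011 and 0.078 in pairs 1, 2 and 3, so the numbers were not taken as pairs. With the replicate block, 12 genes and 0 members passed. TPM keeps no depth, so the precision of low members such as Gng8 and Grk4 cannot be judged from read numbers.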
